A study of Mus musculus with 4 samples.

Results

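The 32 genes described here are the mouse SNF2-family chromatin remodelers, with LSH itself (encoded by Hells), and 3 genes for partners of LSH: Cdca7, its paralog Cdca7l, and Zbtb24. They were taken by name from a list of 32 symbols, all of which were found among the 26031 genes of the annotation used. Each gene was given the 5 kb bins of the mm9 genome that overlap its body or the 5 kb upstream of its start, 545 bins in all. Genomic 5-hydroxymethylcytosine (5hmC) had been captured from 4 groups of mouse cells: LSH knockout ES cells, wild-type ES cells, LSH knockout embryonic fibroblasts (MEFs) and wild-type MEFs. ES cells are pluripotent cells of the early embryo grown with LIF and serum, and MEFs are connective tissue cells grown with serum. Each group had 1 library, so nothing here has a replicate error and no difference could be tested. The strain, the age of the embryos, the allele of the knockout and the number of clones are not given in the labels.

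The data are 2 deposited lists of bins whose 5hmC the authors found to differ between the knockout and the wild-type library, 8557 bins for ES cells and 9002 for MEFs. Neither list gives a level, a direction, a fold change or a p-value, and the read depth is unknown. A listed bin is called altered below, and whether its 5hmC was higher or lower in the knockout is not known. The lists cannot show loss of Hells in the knockout cells, and cannot show the identity of the cells, since they hold no expression values. Intervals in brackets are exact 95% binomial intervals, which cover counting error over bins or genes only. They treat bins as independent, which altered bins of the same gene may not be, and may then be too narrow. Beside a count of 0 bins at Hells, at a group of genes or in a class of bins, the upper end of that interval is given. It is given together with the limit of 3 bins of the total.

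SNF2-family proteins use ATP to slide, evict or exchange nucleosomes, or to displace other proteins from DNA. They are sorted by the sequence of the ATPase domain into groups named after founding members. The Snf2-like group holds the SWI/SNF, ISWI, LSH and CHD remodelers, the Swr1-like group holds the INO80 and histone H2A.Z exchange remodelers, and the remaining groups work mainly in DNA repair, damage tolerance and transcription. LSH is needed for normal DNA methylation in the mouse. CDCA7 binds and activates LSH, and ZBTB24 is a transcription factor that activates Cdca7; in humans, mutations of HELLS, CDCA7 and ZBTB24 cause the ICF immunodeficiency syndrome. TET enzymes make 5hmC from 5-methylcytosine, mostly at CpG dinucleotides.

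Because 5hmC lies mostly at CpG, the stretch of 200 bases with the most CpG, outside annotated UTRs, is shown for 8 altered bins, with each CpG in capitals. The first is the Chd4 bin classed as promoter, which lies upstream of the gene start. The others are the most CpG-dense ES and MEF bin of each gene that had both (Chd7, Smarca2, Btaf1), and the densest of the rest (Smarcal1). Sequences are 5′ to 3′ from the NCBIM37 (mm9) genome.
Chd4 ES bin (chr6:125042906-125043105, + strand): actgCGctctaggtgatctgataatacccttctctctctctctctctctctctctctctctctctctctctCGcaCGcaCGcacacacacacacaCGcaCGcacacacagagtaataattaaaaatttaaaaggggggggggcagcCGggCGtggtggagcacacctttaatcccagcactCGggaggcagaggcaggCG
Chd7 ES bin (chr4:8781839-8782038, + strand): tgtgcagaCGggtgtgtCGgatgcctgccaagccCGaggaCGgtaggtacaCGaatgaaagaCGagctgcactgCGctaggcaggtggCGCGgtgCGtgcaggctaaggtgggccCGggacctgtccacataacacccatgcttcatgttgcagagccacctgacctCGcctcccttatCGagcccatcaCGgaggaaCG
Chd7 MEF bin (chr4:8779754-8779953, + strand): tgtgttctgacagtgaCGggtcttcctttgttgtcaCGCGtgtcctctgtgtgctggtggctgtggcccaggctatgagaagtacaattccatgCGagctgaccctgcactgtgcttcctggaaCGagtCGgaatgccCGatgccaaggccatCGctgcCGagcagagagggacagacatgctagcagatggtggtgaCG
Smarca2 ES bin (chr19:26846618-26846817, + strand): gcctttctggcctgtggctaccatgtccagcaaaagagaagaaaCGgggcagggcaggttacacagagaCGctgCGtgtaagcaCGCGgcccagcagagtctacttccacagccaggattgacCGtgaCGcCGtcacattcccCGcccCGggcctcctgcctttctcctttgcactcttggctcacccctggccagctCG
Smarca2 MEF bin (chr19:26833020-26833219, + strand): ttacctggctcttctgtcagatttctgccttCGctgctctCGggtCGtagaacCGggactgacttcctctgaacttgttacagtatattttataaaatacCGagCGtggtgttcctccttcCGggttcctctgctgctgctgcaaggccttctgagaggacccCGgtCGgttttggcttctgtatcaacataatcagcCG
Btaf1 MEF bin (chr19:37080217-37080416, + strand): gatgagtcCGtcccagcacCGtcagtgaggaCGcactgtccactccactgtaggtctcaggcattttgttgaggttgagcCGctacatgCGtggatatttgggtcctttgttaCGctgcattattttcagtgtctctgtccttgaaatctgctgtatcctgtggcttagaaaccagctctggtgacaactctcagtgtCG
Btaf1 ES bin (chr19:37076762-37076961, + strand): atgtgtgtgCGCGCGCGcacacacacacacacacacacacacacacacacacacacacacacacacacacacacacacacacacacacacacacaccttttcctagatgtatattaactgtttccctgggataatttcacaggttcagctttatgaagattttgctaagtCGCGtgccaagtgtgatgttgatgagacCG
Smarcal1 ES bin (chr1:72657247-72657446, + strand): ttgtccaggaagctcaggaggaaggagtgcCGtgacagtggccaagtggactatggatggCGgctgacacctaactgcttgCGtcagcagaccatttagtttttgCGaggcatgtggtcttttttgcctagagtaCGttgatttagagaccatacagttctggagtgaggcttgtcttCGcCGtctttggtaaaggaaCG
The Chd7 ES stretch held the most CpG, 15 in 200 bases, with 88 coding bases. The Chd7 MEF stretch held 10 CpG and 129 coding bases. Those of Chd4 (10 CpG) and the Btaf1 ES bin (7 CpG) lie at runs of CA or CT repeats, and the Btaf1 MEF stretch also has 7 CpG. Outside Chd7, only the Btaf1 ES stretch held coding bases (58). The lists do not show which CpG of a bin carried 5hmC.

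Altered bins were found at 11 of the 32 genes in ES cells and at 7 in MEFs. The 11 genes in ES cells are 34.4% of the 32 [18.6% to 53.2%], against 19.8% of all genes. The 7 genes in MEFs are 21.9% [9.28% to 40.0%], against 14.1% of all genes. Remodeler genes are long, with a median of 64.02 kb against 13.6 kb for all genes, and a longer gene has more bins. Set against genes of similar length, the counts lay near the shares of all genes. Of the 9 genes of 100 kb or more, 4 had an ES bin, against 46.7% of all such genes, and 4 had a MEF bin, against 46.0%. Of the 10 genes of 50 to 100 kb, 4 had an ES bin (36.5% of all such genes) and 2 a MEF bin (26.4%). Of the 11 genes of 20 to 50 kb, 3 had an ES bin (24.0%) and 1 a MEF bin (14.8%), and neither of the 2 shorter genes had any (11.2% and 6.52%). Counted over bins, 13 of 545 were altered in ES cells (2.39% [1.28% to 4.04%], against 2.58% of bins at any gene). The MEF count was likewise 13 of 545 (2.39%, against 2.38% of bins at any gene).

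**Figure D1:**
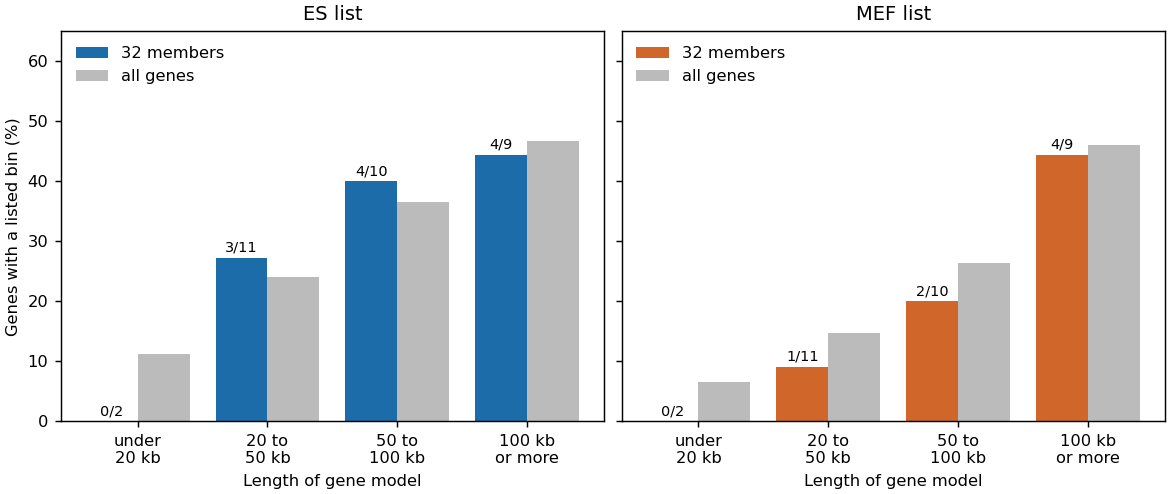
Share of genes with an altered bin (%), by length of the gene model, for the 32 remodeler and partner genes (coloured, with numbers of genes) and for all genes (grey), ES list left and MEF list right. In genes of 100 kb or more 4 of 9 had a bin on each list, against 46.7% and 46.0% of all genes.

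The genes divided by cell type as follows. Btaf1, Chd7 and Smarca2 were on both lists, 9.38% of the 32 against 5.9% of all genes. On the ES list only were 8 genes (Chd2, Chd4, Chd5, Chd8, Ep400, Rad54b, Smarca4 and Smarcal1), 25% against 13.9% of all genes. On the MEF list only were 4 (Chd3, Chd6, Chd9 and Ercc6), 12.5% against 8.17%. The other 17 were on neither, 53.1% against 72.0%. These shares over all genes are not matched for length. No single bin of these genes was on both lists. Among all 1535 genes with bins on both lists, only 293 (19.1%) had a bin in common, and only 3 of the 32 were on both. With 1 library per genotype, whether ES cells and MEFs differ, or only the depth and threshold behind their lists, cannot be told apart.

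Smarca2 encodes BRM, 1 of the 2 alternative ATPases of the SWI/SNF (BAF) complexes, and had the most altered bins of the 32 genes. It had 1 bin in ES cells and 5 in MEFs, of 37 bins at the gene. The ES bin (chromosome 19, 26845001 to 26850000) covered exons 30 and 31 of 33. The MEF bins began at 26685001, in the first part of the gene 7.85 kb from its start, and at 26790001, 26805001, 26815001 and 26830001, all in the second part of the gene. Of these, the bins from 26790001 and 26830001 held exon 26 and exon 29, and the others were intronic. The last MEF bin and the ES bin were separated by 2 bins that were on neither list. MEF bins were dense on chromosome 19 as a whole, where 4.26% of bins were altered, against 1.75% over chromosomes 1 to 19 and X (ES list 2.4%, against 1.67%). Having 5 or more MEF bins was rare, at 0.784% of all genes, but less so among genes of 100 kb or more (7.35%) and among the 64 of these on chromosome 19 (23.4%). Smarca4, which encodes the alternative ATPase BRG1, had 1 ES bin (chromosome 9, 21505001 to 21510000) and no MEF bin. It covered exons 32 to 34 of 34, so in ES cells both genes were altered over their last part.

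Chd7 and Btaf1 had an ES bin and a MEF bin that touched. Chd7 encodes a remodeler of enhancers that is mutated in human CHARGE syndrome. Its ES bin (chromosome 4, 8780001 to 8785000) covered exons 27 to 32 of 38, and its MEF bin (8775001 to 8780000) covered exons 24 to 26. These are the bins of the Chd7 sequences above, and at 23.6 CpG per kb the ES bin was the most CpG-dense altered bin of the 32 genes. A further ES bin at 8700001 to 8705000 was intronic. BTAF1 strips the TATA-binding protein from DNA. Its ES bin (chromosome 19, 37075001 to 37080000) covered exons 33 to 35 of 38 and its MEF bin (37080001 to 37085000) covered exons 36 and 37. Among all 1535 genes with bins on both lists, the nearest ES and MEF bins touched in 345 (22.5%) and were the same bin in 293 (19.1%), so touching bins are common in such genes.

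The CHD genes encode remodelers with paired chromodomains, and 8 of Chd1 to Chd9 had an altered bin, against 28.0% of all genes on either list. In ES cells it was 5 (55.6%, against 19.8% of all genes) and in MEFs 4 (44.4%, against 14.1%), with Chd7 in both. Their 196 bins included 7 ES bins (3.57% [1.45% to 7.22%], against 2.58% at any gene) and 6 MEF bins (3.06% [1.13% to 6.54%], against 2.38%). Both shares at any gene lie inside these intervals. The shares of all genes are not matched for length, and Chd1 to Chd9 have a median of 67.6 kb. In the first pair, Chd2, which is mutated in human epilepsy, had an intragenic ES bin over exons 3 and 4 of 39 (chromosome 7, 80660001 to 80665000). It also had an ES bin upstream (80690001 to 80695000, with its midpoint at -5.87 kb from the start). Chd1, which is needed for open chromatin in mouse ES cells, had neither.

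The 3 Mi-2 genes, whose products are ATPases of the NuRD deacetylase complex, had 1 bin each, in ES cells for Chd4 and Chd5 and in MEFs for Chd3. Of all genes, 28.0% were on either list. Of the 28 bins at the Mi-2 genes, 7.14% were altered in ES cells [0.877% to 23.5%] and 3.57% in MEFs [0.0904% to 18.3%]. The shares at any gene, 2.58% and 2.38%, lie inside these intervals. Chd4, the main NuRD ATPase gene of ES cells, had the only altered bin of the 32 genes classed as promoter (chromosome 6, 125040001 to 125045000). That bin only just reaches within 1 kb of the start on its upstream side, with its midpoint at -3.50 kb. The bin over the start itself, at 31.8 CpG per kb, was on neither list. The Chd3 bin was also upstream of the gene (chromosome 11, 69185001 to 69190000, midpoint at -4.57 kb from the start). In Chd5, a gene best known from neurons and testis, the ES bin covered exon 2 of 42 (chromosome 4, 151720001 to 151725000).

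All 4 genes of the third CHD group, Chd6 to Chd9, were altered in at least 1 cell type, against 28.0% of all genes. Of their 128 bins, 2.34% were altered in ES cells [0.486% to 6.70%] and 3.91% in MEFs [1.28% to 8.88%], against 2.58% and 2.38% at any gene. Chd6 had 2 touching MEF bins in introns (chromosome 2, 160915001 to 160920000 and 160920001 to 160925000), with midpoints 17.3 and 12.3 kb from its start. Chd9 had 2 MEF bins in introns (chromosome 8, 93380001 to 93385000 and 93395001 to 93400000), at 13.2% and 19.8% of the way along the gene. Chd8, whose product binds beta-catenin and which is mutated in human autism, had 1 ES bin over exons 9 to 12 of 37 (chromosome 14, 52840001 to 52845000). The MEF bins of Chd6 and Chd9 thus lay in the first 20% of the gene and that of Chd7 in the last 20%. These 4 genes have a median of 169.7 kb, and of all genes of 100 kb or more 46.7% had an ES bin and 46.0% a MEF bin.

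**Figure D2:**
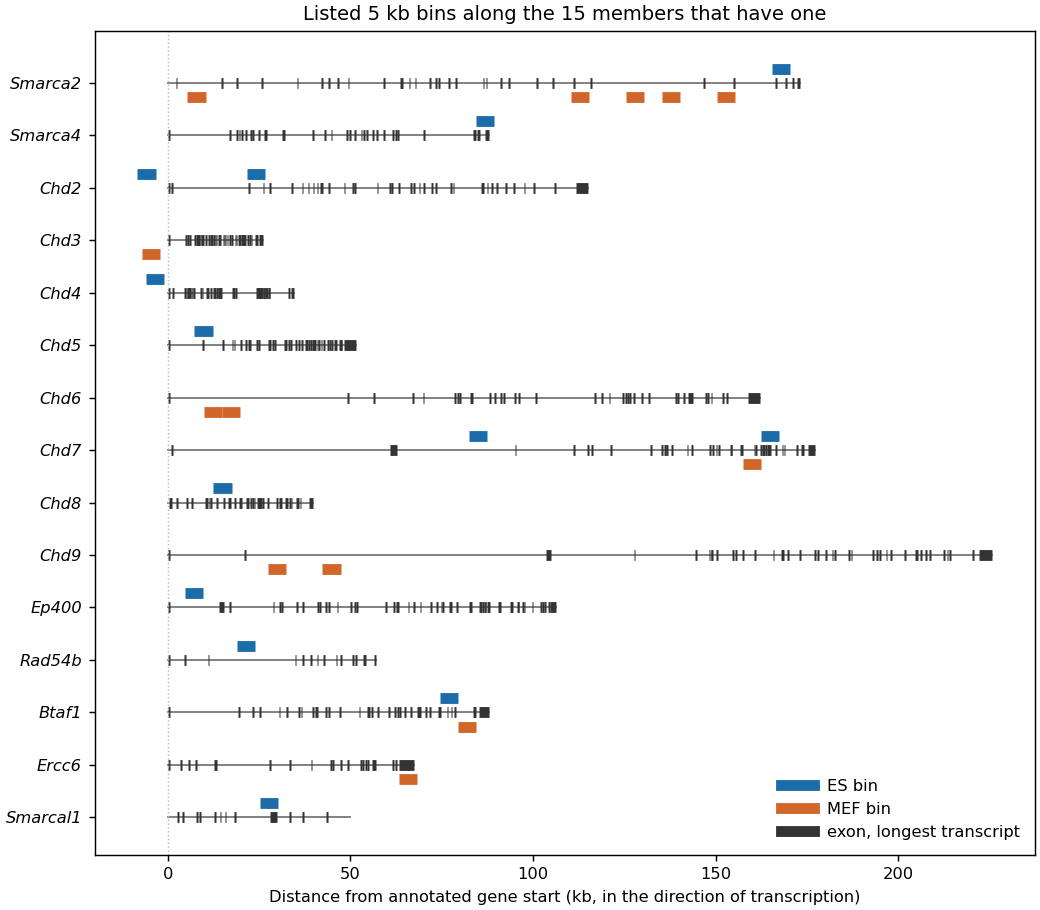
Altered 5 kb bins along the 15 genes that had 1 or more, as distance from the annotated start in kb in the direction of transcription; blue bars above a gene are ES bins, orange bars below it MEF bins, and black marks exons of the longest transcript. Smarca2 has 5 MEF bins, and in Chd7 and Btaf1 an ES bin touches a MEF bin near the 3′ end.

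Outside the Snf2-like group, 5 of 14 ATPase genes had an altered bin (35.7%, against 28.0% of all genes). The share of all genes is not matched for length, and these 14 have a median of 67.8 kb. Of all genes of 50 to 100 kb, 36.5% had an ES bin and 26.4% a MEF bin. Of the 224 bins at the 14 genes, 1.79% were altered in ES cells and 0.893% in MEFs, against 2.58% and 2.38% at any gene. In the Swr1-like group it was Ep400, a remodeler gene of the TIP60 acetyltransferase complex, with 1 intronic ES bin 7.24 kb from the start (chromosome 5, 111190001 to 111195000). This bin also overlaps the gene model Gm15559 or its upstream 5 kb, and cannot be assigned to Ep400 alone. Rad54b, a homologous recombination gene, had 1 ES bin (chromosome 4, 11505001 to 11510000), which overlaps no exon of the longest transcript but an exon of another one. A shorter model of the same name overlaps it as well.

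ERCC6 (CSB), which acts in transcription-coupled repair, and SMARCAL1, which anneals DNA at stalled forks, each had 1 bin. At Ercc6 it was a MEF bin over the last of 21 exons (chromosome 14, 33390001 to 33395000), and at Smarcal1 an ES bin over exon 9 of 12 (chromosome 1, 72655001 to 72660000). The Smarcal1 bin, at 18.8 CpG per kb, was the densest of the 12 bins at its gene, and that of Ercc6, at 16.2, came after the densest of 15.

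Hells and its partner genes were on neither list, with 0 of 10 bins at Hells (chromosome 19, 39005405 to 39045541) and 0 of 18 at Cdca7, Cdca7l and Zbtb24. A count of 0 of 10 allows a share of up to 30% by the limit of 3 bins and 30.8% by the exact interval. For 0 of 18 these limits are 16.7% and 18.5%. All lie above the 2.58% (ES) and 2.38% (MEF) of bins at any gene. The 3 partner genes are shorter than the median of the 32, at 10.7 kb for Cdca7 and 15.2 kb for Zbtb24 and 34.8 kb for Cdca7l. At Zbtb24 the nearest altered bins lay 14.6 kb (ES) and 10.2 kb (MEF) outside the region counted. At Cdca7l they lay 27.3 and 87.3 kb away, and at Cdca7 160.1 and 60.1 kb away. For Hells the nearest ES bin was 510 kb away and the nearest MEF bin 24.5 kb away.

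The other 13 genes without a bin include both ISWI genes, Smarca1 and Smarca5, and all of the Rad5/16-like genes Hltf, Shprh and Ttf2. At the ISWI genes 0 of 29 bins allows up to 10.3% by the limit of 3 bins and 11.9% by the exact interval. At the Rad5/16-like genes 0 of 38 bins allows up to 7.89% and 9.25%. HLTF and SHPRH are ubiquitin ligases of damage tolerance, and TTF2 ends transcription. The rest were Atrx, Rad54l and Rad54l2 of the Rad54-like group, Ino80, Srcap and Smarcad1 of the Swr1-like group, Chd1, and the PARP-activated remodeler gene Chd1l. Atrx, which with DAXX deposits the histone variant H3.3, and Smarca1 lie on the X chromosome. There only 1.27% of genes had an ES bin and 1.73% a MEF bin. The genes that came nearest to being counted were Rad54l and Chd1l, with an ES bin 8.71 and 9.67 kb outside the region. Those counted only by their upstream 5 kb were Chd4 and Chd3.

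By subfamily, the Snf2-like genes (15, LSH among them) held 9 of the 13 ES bins and 11 of the 13 MEF bins, and 55.6% of all bins at the 32 genes. Of these 11 MEF bins, 5 were at Smarca2 alone, on chromosome 19, where MEF bins were dense. Of these 15 genes, 7 had an ES bin (46.7%, against 19.8% of all genes) and 5 a MEF bin (33.3%, against 14.1%). These shares of all genes are not matched for length, and the 15 have a median of 67.6 kb. Of all genes of 50 to 100 kb, 36.5% had an ES bin and 26.4% a MEF bin. Of their 303 bins, 2.97% were altered in ES cells [1.37% to 5.56%], against 2.58% at any gene, and 3.63% in MEFs [1.83% to 6.40%], against 2.38%. The shares at any gene lie inside both intervals. The Swr1-like and Rad54-like groups (4 genes each) had 1 ES bin each and no MEF bin, of 69 and 71 bins. In ES cells these were 1.45% and 1.41%, against 2.58% at any gene. The MEF counts of 0 allow up to 4.35% and 4.23% by the limit of 3 bins and 5.21% and 5.06% by the exact interval. These limits lie above the 2.38% at any gene. The SSO1653-like group, which is Btaf1 and Ercc6, had 1 ES bin and 2 MEF bins of 34. These were 2.94% [0.0744% to 15.3%] and 5.88% [0.72% to 19.7%], and the intervals hold the shares at any gene. ES and MEF shares within each subfamily had overlapping intervals, which is a description over bins and not a test. Outside the Snf2-like group the counts were too small for the intervals to separate, so their overlap shows nothing about the cell types. With 1 library per group no difference between the cell types was tested.

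**Figure D3:**
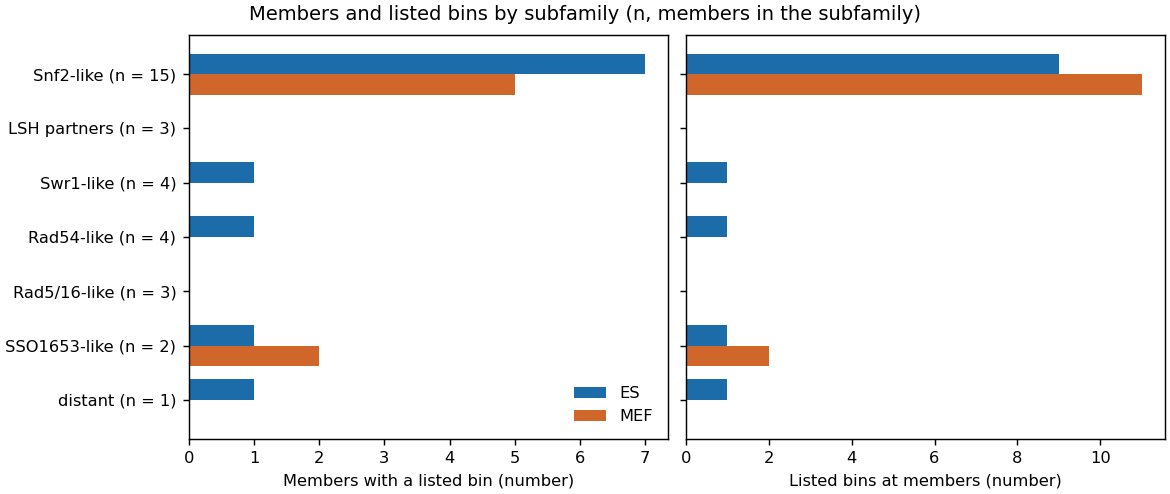
Number of genes with an altered bin (left) and number of altered bins (right) in each subfamily, ES in blue and MEF in orange; n is the number of genes in the subfamily. The Snf2-like genes hold 9 of the 13 ES bins and 11 of the 13 MEF bins.

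Altered bins at these genes had a moderate CpG density. ES bins had a median of 11.6 CpG per kb (range 5.2 to 23.6) and MEF bins one of 12 (7.0 to 16.4), against 9.0 in the 519 bins on neither list. Altered bins at any gene had medians of 13.0 in ES cells and 11.6 in MEFs. Among bins with 12 or more CpG per kb, 6 of 154 at these genes were altered in ES cells (3.90%, against 5.93% at any gene) and 7 in MEFs (4.55%, against 4.23%). Among the 391 with fewer CpG, 7 were altered in ES cells (1.79%, against 1.38%) and 6 in MEFs (1.53%, against 1.71%). In both classes the counts thus lay within a few bins of the shares at all genes. The CpG-richest bins at these genes were on neither list. Of the 24 bins with 25 or more CpG per kb, of which 19 were promoter bins, 0 were listed in either cell type, which allows a share of up to 12.5% by the limit of 3 bins and 14.2% by the exact interval. At any gene, 4.23% of such bins were altered in ES cells and 2.94% in MEFs, which both lie below these limits. The limit of 25 was set after these values had been seen, above the densest altered bin (23.6). The count of 0 follows from that choice and tests nothing. In ES cells 1 of the 32 genes (Chd4, by its upstream bin) had an altered bin within 1 kb of its start, and in MEFs 0. The shares of all genes were 4.26% and 3.22%, and counts of 1 and 0 among 32 genes lie near them.

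**Figure D4:**
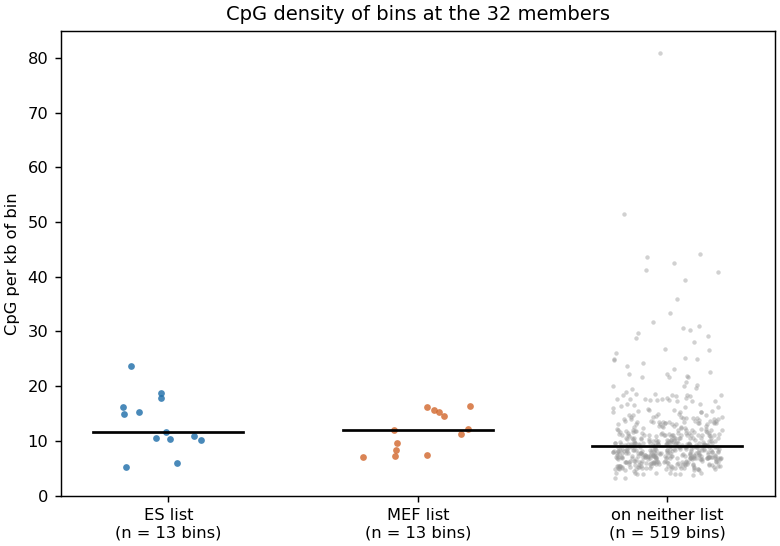
CpG per kb of each 5 kb bin at the 32 genes, for bins on the ES list, on the MEF list and on neither; horizontal lines are medians (11.6, 12 and 9.0) and points are spread sideways for visibility. Bins on either list (13 each) stay below 24 CpG per kb, while the 519 unlisted bins reach 81.0.

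An exon was overlapped by 9 of 13 ES bins (69.2%) and 5 of 13 MEF bins (38.5%). At all genes the shares were 62.4% and 44.97%. Of the bins at remodeler genes on neither list, 72.4% overlapped an exon, against 47.3% of such bins at any gene. The ES bins of these genes were thus close to the unlisted bins of the same genes and the MEF bins lower, by a few bins and without a test. In genes of 50 kb or more, 4 of 9 ES bins and 4 of 12 MEF bins lay in the last 20% of the body. At all such genes the shares were 22.2% and 17.8%. The bins there were those of Smarca2, Smarca4, Chd7 and Btaf1 in ES cells, and of Smarca2, Chd7, Btaf1 and Ercc6 in MEFs. The limit of 20% was chosen after the positions had been seen, so the comparison with all such genes tests nothing.

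Remodelers work in complexes, and 77 genes of their other subunits and of 3 further SNF2-family ATPases were counted in the same way. Of these, 31 had an ES bin (40.3%, against 19.8% of all genes) and 9 a MEF bin (11.7%, against 14.1%). These genes are shorter than the 32, with a median of 26.5 kb. In ES cells 12 of 24 BAF and PBAF subunit genes, 5 of 12 NuRD genes, 11 of 28 genes of the INO80, SRCAP and TIP60 complexes and 3 of 9 ISWI partner genes had a bin. In MEFs the same lists had 5, 1, 1 and 1. Daxx, the partner of ATRX, had neither, and of the further ATPases 1 of 3 had a MEF bin and 0 an ES bin. The 77 genes were also divided by length. An ES bin was found at 7 of 31 genes under 20 kb (22.6%, against 11.2% of all such genes) and 9 of 22 of 20 to 50 kb (40.9%, against 24.0%). Among longer ones it was 8 of 11 of 50 to 100 kb (72.7%, against 36.5%) and 7 of 13 of 100 kb or more (53.8%, against 46.7%). A MEF bin was found, in the same order, at 1 (3.23%, against 6.52%), 1 (4.55%, against 14.8%), 2 (18.2%, against 26.4%) and 5 (38.5%, against 46.0%). The ES shares were thus above and the MEF shares below those of all genes in each of the 4 classes, as a description without a test. The MEF counts are small, and each lies within a few genes of what the share of all genes would give.

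The subunit genes with the most bins encode the ARID subunits of BAF and PBAF, which bind DNA, and the ISWI partner BAZ2B. Arid1b had 5 ES and 7 MEF bins of 73, Arid2 had 6 ES and 1 MEF bin of 26, and Baz2b had 4 of each of 64. These genes were picked for their number of bins, and each exceeds 100 kb. At any gene 2.58% of bins were altered in ES cells and 2.38% in MEFs. Of all genes of 100 kb or more, 7.35% had 5 or more MEF bins, as only Arid1b of these genes did. The share of such long genes with as many ES bins is not given here. Meaf6, a subunit of the TIP60 complex, had 3 ES bins and 1 MEF bin of 8, and shared 1 bin between the lists (chromosome 4, 124785001 to 124790000). Trrap, the scaffold gene of that complex, had 3 ES bins of 21 and none in MEFs. Arid1a and Smarcc1 had 1 bin on each list.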

How the data were processed

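5hmC-bearing fragments of sonicated genomic DNA were glucosylated, biotinylated and captured, per the labels' protocols. BWA, SAMtools 1.3.1 and mm9 are named in the submitters' processing notes. The counting and calling of bins, its threshold and any input library are not stated in the labels. The deposited values are other than levels: each of the 2 lists gives positions of 5 kb bins called differential, with 1 library per group and no depth. Positions are given 1-based on NCBIM37 (mm9), with genes from GENCODE M1; all 8545 ES and 8972 MEF bins on chromosomes 1 to 19 and X matched its bin starts and ends, and the 12 and 30 bins elsewhere were not used.

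Genes were protein-coding, lincRNA and processed transcript models, the longest per name. For 29 of the 32 genes the model exceeded 95% of the length in RefSeq (GRCm38.p6, used for names and lengths only); those of Srcap, Smarcal1 and Chd8 were 49.5%, 49.8% and 66.2%, so bins of these 3 may be missed. Ercc6l2 and Mrgbp were matched by synonym. A promoter bin overlapped the 1 kb either side of the start; otherwise exons of any transcript decided, and exon numbers are from the longest transcript. Shares over bins leave out those with more than 50% undetermined bases. Subfamilies follow the usual grouping of the ATPase domains. Every member is named; subunit genes are named with a bin on both lists or 3 or more on 1. The members and lists were chosen with earlier results of these data known. Counting was tested on simulated data, with the right count at 200 of 200 genes. Python 3.11.15, numpy 2.4.6, pandas 2.3.3, scipy 1.17.1, pysam 0.24.0, numba 0.67.0 and matplotlib 3.10.9 were used.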

Additional observations from a re-analysis of the deposited data

How the results depend on the processing

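The numbers of genes with an ES bin (11), a MEF bin (7) and both (3), and of distinct ES and MEF bins (13 each), were recomputed under 7 other settings. Of these, 1 setting, all models of a gene name joined, was chosen after seeing the data. All 35 values stayed within 1.5 times the reported ones. With the gene body alone, Chd4 left the ES list and Chd3 the MEF list, giving 10 and 6 genes. Without bins shared with other genes Ep400 was lost, giving 10 in ES cells. With 10 kb upstream, by bin midpoint, with at least 50% of the bin inside, without bins of over 20% repeated 32-base words (from a sample of 1 word in 64) and with all models joined, the counts of genes stayed at 11, 7 and 3. A stricter threshold could not be tried, since the lists hold no score. No paired analysis was possible because each group has 1 library. The unknown depth limits every count: a bin absent from a list may be unaltered or may have had too few reads.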
